A study of Mus musculus with 20 samples.

Results

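Loss of EED, a core subunit of Polycomb repressive complex 2 (PRC2), left 3489 regions of the gut mesenchyme genome with no accessibility peak that had one in both control organs. The regions were selected on the peak lists themselves. The 4 lists of broad ATAC-seq peaks, from the control intestine, control stomach, *Eed* KO intestine and *Eed* KO stomach, were merged wherever peaks shared at least 1 bp, which gave 162113 regions. A region was called lost when it held a peak from the control intestine and a peak from the control stomach and none from either *Eed* KO organ. These lost regions were 2.15% of all merged regions and 4.05% of the 86192 regions that both control organs shared. Regions with a peak in all 4 lists (74635) are called kept, and regions with a peak in both *Eed* KO organs alone (6769) are called gained.

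All cells were GFP+ mesenchymal cells, sorted from the stomach or the intestine of mouse embryos at E13.5. The sample labels give the strain as C57BL/6, while the study's reporting summary gives mixed backgrounds, with 129 in the line of the floxed *Eed* allele and CD-1 in that of the reporter. Control and *Eed* KO embryos can therefore differ in strain alleles, and such differences cannot be told apart from the loss of *Eed* here. Control embryos were *Bapx1*-cre;*Rosa26*mTmG, and *Eed* KO embryos were *Eed*fl/fl;*Bapx1*-cre;*Rosa26*mTmG, so both carried the Cre driver and the reporter, and GFP marks cells in which *Bapx1* (*Nkx3-2*) drove Cre and the progeny of such cells. ATAC-seq and RNA-seq each had 2 libraries per organ and genotype, described by the study as biological replicates. The authors pooled the 2 ATAC-seq libraries of each condition before they called peaks, so each condition has 1 list, and no difference between peak lists can be set against replicate error. The study did compare ATAC-seq read counts of the replicates with DESeq2, under a fold threshold. In each organ it reported fewer regions with reduced accessibility than are called lost here. That test was not repeated here.

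PRC2 places the methyl mark on lysine 27 of histone H3 (H3K27me3) that keeps developmental genes silent in cell types where they are not used. EED holds the complex together and binds the mark. ATAC-seq uses a transposase that cuts open DNA, and most open sites away from gene starts are enhancers, stretches that transcription factors bind to act on a gene at a distance. In the gut mesenchyme such factors include basic helix-loop-helix (bHLH) proteins such as TCF21, TWIST1 and HAND1, which bind E-box words of the form CANNTG, forkhead proteins such as FOXF1, and the MEIS and PBX homeodomain proteins.

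Sequences of 11 lost regions are given as examples. The first 5 are among the 10 with the highest peaks. The others lie nearest to genes whose RNA is described here and were picked because they hold CAGCTG, which 31.2% of all lost regions hold near their centre, while 45.7% hold none of the 3 marked words. They are from GRCm38, plus strand, 5′ to 3′. Capitals mark the E-box word CAGCTG, the forkhead word TGTTTAC and the MEIS word TGACAG, on either strand.
intergenic, chromosome 9 (chr9:100270301-100270520, 220 bp): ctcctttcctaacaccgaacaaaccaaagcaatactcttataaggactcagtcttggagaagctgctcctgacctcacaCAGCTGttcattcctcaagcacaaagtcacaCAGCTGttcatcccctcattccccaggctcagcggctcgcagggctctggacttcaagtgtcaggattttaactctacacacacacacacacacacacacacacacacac
intergenic, chromosome 8 (chr8:20597459-20597627, 169 bp): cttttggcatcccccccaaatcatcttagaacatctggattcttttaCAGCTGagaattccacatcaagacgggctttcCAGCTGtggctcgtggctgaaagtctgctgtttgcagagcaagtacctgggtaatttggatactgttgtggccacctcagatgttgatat
at the start of Rprl3 (chr8:3803140-3803342, 203 bp): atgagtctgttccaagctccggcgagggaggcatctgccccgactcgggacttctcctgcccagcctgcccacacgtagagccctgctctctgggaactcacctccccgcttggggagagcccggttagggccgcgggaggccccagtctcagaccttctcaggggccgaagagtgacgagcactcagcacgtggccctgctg
Gm20474 intron (chr12:23605471-23605636, 166 bp): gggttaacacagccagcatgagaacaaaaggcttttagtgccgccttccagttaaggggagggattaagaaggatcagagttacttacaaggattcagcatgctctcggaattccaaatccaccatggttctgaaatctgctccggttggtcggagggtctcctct
intergenic, chromosome 17 (chr17:67651623-67651906, 284 bp): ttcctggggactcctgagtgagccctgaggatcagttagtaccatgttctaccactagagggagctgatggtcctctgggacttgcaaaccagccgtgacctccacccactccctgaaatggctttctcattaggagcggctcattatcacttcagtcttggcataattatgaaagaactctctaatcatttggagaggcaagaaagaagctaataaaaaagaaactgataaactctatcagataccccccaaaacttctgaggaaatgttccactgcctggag
first Acap2 intron region (chr16:31184770-31184979, 210 bp): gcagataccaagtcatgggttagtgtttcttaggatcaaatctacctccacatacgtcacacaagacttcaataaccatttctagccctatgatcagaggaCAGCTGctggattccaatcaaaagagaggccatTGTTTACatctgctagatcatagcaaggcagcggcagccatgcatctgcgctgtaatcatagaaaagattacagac
second Acap2 intron region (chr16:31194147-31194283, 137 bp): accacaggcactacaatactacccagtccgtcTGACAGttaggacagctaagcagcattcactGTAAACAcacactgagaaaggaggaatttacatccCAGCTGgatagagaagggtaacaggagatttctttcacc
Bmp6 intron (chr13:38398670-38398894, 225 bp): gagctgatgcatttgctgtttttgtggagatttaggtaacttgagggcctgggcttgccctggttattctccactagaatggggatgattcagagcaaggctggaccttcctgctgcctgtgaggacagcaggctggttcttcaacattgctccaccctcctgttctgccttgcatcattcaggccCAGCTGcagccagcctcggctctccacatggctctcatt
Gna14 intron (chr19:16495943-16496233, 291 bp): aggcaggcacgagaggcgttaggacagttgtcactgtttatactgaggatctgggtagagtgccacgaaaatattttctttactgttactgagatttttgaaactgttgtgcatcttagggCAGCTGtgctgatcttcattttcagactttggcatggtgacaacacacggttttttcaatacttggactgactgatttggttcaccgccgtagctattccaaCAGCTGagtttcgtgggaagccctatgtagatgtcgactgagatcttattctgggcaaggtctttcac
beyond Hand1 (chr11:57863078-57863326, 249 bp): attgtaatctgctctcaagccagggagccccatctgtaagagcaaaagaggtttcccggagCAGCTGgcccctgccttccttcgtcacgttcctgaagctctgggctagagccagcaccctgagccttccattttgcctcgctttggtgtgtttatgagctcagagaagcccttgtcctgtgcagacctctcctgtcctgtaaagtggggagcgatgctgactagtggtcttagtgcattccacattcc
Tacr1 intron, central part (chr6:82479808-82480107, 300 bp): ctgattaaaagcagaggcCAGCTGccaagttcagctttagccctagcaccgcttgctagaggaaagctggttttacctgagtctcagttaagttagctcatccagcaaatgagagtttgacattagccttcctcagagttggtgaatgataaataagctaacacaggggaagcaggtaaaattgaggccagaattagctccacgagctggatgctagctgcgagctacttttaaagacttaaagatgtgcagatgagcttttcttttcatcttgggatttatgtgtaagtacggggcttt
A pair of E-boxes stood in each of the first 2 regions and in the *Gna14* region. The short second *Acap2* region held all 3 kinds of word in 137 bp. The regions at the *Rprl3* start, in the *Gm20474* intron and on chromosome 17 held none of them.

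The targeted gene followed its labels. *Eed* RNA was 40 and 41.5 CPM (gene counts scaled to a common library total) in the control stomach against 11.4 and 7.4 CPM in *Eed* KO, and 38.1 and 40.1 against 10.7 and 8.58 CPM in the intestine. It fell by 2.11 and 2.02 on the log2 scale (edgeR quasi-likelihood test, Benjamini-Hochberg adjusted p = 0.0017 and 0.0046). The 8 libraries held between 30236159 and 39606157 counts on genes.

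Peaks that disappeared were mostly low. Over the 3489 lost regions, the fold enrichment of the peak over the MACS2 background had a median of 2.89 in the control intestine, with a range of 2.01 to 16.3. In the control stomach the median was 2.85 and the range 2 to 16.1. Kept regions had medians of 4.48 and 4.44. The fold was higher in the intestine for 1882 lost regions and in the stomach for 1607, so neither control organ stood apart. The plot of the 2 control folds shows the members crowded just above the lowest folds that the lists hold.

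**Figure D1:**
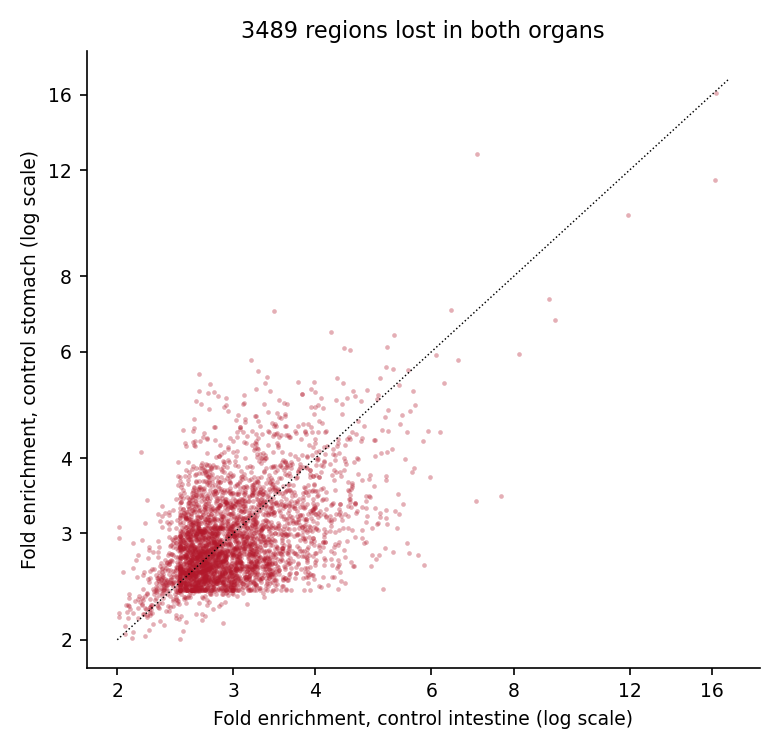
Each point is 1 of the 3489 lost regions, with the fold enrichment of its peak in the control intestine on the x axis and in the control stomach on the y axis, both on log scales, and the dotted line marks equal values. Most points lie between 2 and 4 on both axes, and 19 regions reached a fold of 5 in both organs.

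The lower of the 2 control folds was at least 4 in 84 regions and at least 5 in 19. MACS2 also gave each peak a -log10 q, the strength of evidence for the peak after correction for multiple testing, and the lists hold peaks below a value of 2, the limit given in the study's methods. Its lower value was under 2 in 2001 lost regions (57.4%) and at least 5 in 163 (4.67%). Just inside the rule lay a region at the start of *Gm26537*, with a -log10 q of 1.02 in the control intestine and 3.02 in the control stomach. Just outside it lay a region on chromosome 2 (chr2:171677789-171678306) whose control peaks had folds of 2.7 and 2.93 and whose single *Eed* KO peak, in the intestine, had a fold of 2.14 and a -log10 q of 1.05.

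The share of shared control regions that was lost was smaller for stronger peaks up to a fold of 8. Of regions whose lower control fold was between 2 and 2.5, 16.8% were lost, against 4.13% at 3 to 3.5, 0.461% at 4 to 5, 0.0404% (4 of 9907) at 6 to 8 and 0.0472% (3 of 6350) at 8 and over. In each bin up to a fold of 8 a smaller share was lost within 1000 bp of a gene start than further away. At 2.5 to 3 the shares were 3.87% of 1007 and 11% of 17661. Above 8 the order turned, with 2 of 4017 lost against 1 of 2333. Counted from the other side, the share of regions shared by both *Eed* KO organs that had no control peak ran from 24.7% in the lowest bin to 0.0813% in the highest, and was 7.29% in all. The *Eed* KO lists were not the shorter ones. They held 119181 peaks for the intestine and 116842 for the stomach, against 103808 and 115789 in the controls. Sequencing depth per list was not analysed here, and its part in the loss of low peaks was not tested.

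**Figure D2:**
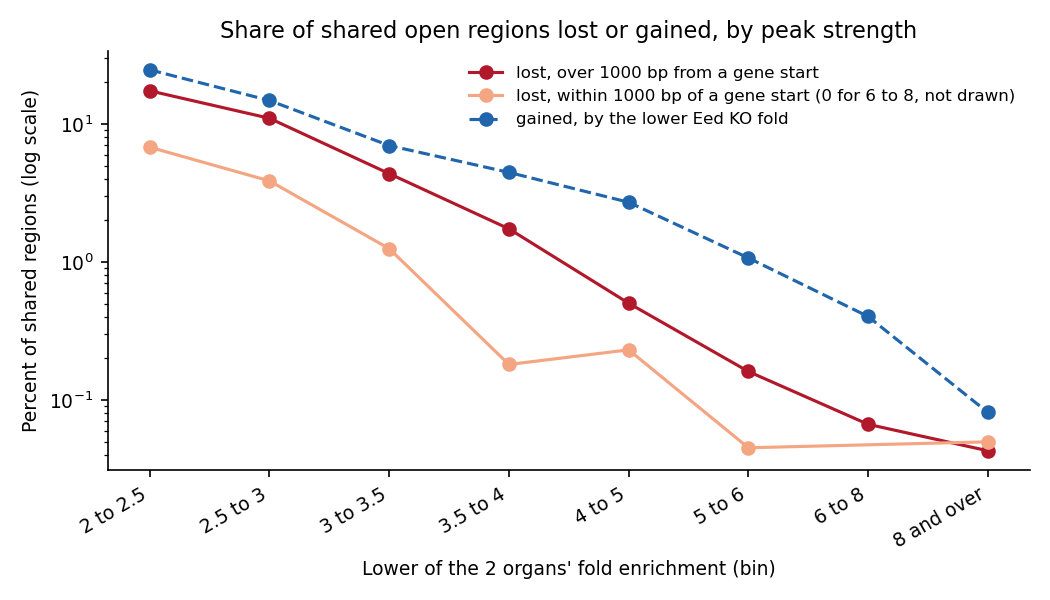
The x axis bins regions by the lower of the 2 organs' fold enrichment and the y axis gives, on a log scale, the percent of shared regions lost (solid lines, by control fold, over 1000 bp from a gene start in dark red and nearer in orange) or gained (dashed blue line, by *Eed* KO fold). Over 1000 bp from a start the lost share ran from 17.4% in the lowest bin to 0.0429% in the highest.

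Lost regions were distal. Only 77 of 3489 (2.21%) lay within 1000 bp of an annotated gene start, against 20.6% of kept regions and 4.68% of gained regions. Regions that both controls shared and only the *Eed* KO stomach, or only the *Eed* KO intestine, had lost were close, at 2.47% and 2.58%. Because kept regions were stronger, the 28559 kept regions with a lower control fold of 2.36 to 3.64, the middle 90% of the lost regions, are used from here as the matched kept regions. They were matched on this range alone and stayed stronger, with a median lower control fold of 3.01 against 2.69 in lost regions. This difference in strength remains in each comparison with them. Of the matched kept regions, 7.97% lay at a gene start. Introns held 44.7% of the lost regions, intergenic DNA 44.5% and exons 8.57%. The median distance to the nearest gene start was 32557 bp, against 23283 bp for matched kept and 23089 bp for gained regions. It was 30026 bp for regions lost in the stomach alone and 31309 bp for those lost in the intestine alone. Lost regions were also short, with a median width of 403 bp against 1060 bp in matched kept regions and 406 bp in gained regions.

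A peak of either *Eed* KO list, of any kind, lay within 10000 bp for 2678 lost regions (76.8%), and within 250 bp for 36, and the median distance to the nearest was 4398 bp. All autosomes and the X chromosome took part, and the share of shared control regions that was lost ran from 3.05% on chromosome 19 to 5.02% on chromosome 3, with 4.61% on X. The lost regions were scattered, with a median of 369 kb from one to the next.

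One locus broke this pattern. A run of 18 lost regions spanned 155 kb around *Cwc22* (chr2:77869718-78024734), a gene for a splicing factor. Whether the copy number of this locus differed between the strain alleles of control and *Eed* KO embryos was not checked, and a difference of that kind cannot be told apart from lost accessibility. The next longest runs, with no more than 50 kb between neighbours, held 5. Peaks in the *Cwc22* run were low and wide. Their folds ran from 2.02 to 3.08 in the control intestine and from 2.2 to 3.28 in the control stomach, and their median width was 1680 bp. Of 34 merged regions in the run, 30 had no peak in the *Eed* KO intestine and 4 were kept. The median folds of the kept regions were 6 (intestine) and 6.11 (stomach) in controls, against 7.03 (intestine) and 6.24 (stomach) without *Eed*. RNA of *Cwc22* was 28.2 and 33.1 CPM in the control stomach and 28.7 and 32.8 CPM in the *Eed* KO stomach. In the intestine it was 30.9 and 38.6 CPM in controls and 28.8 and 33.1 CPM in *Eed* KO. The groups overlapped in both organs (log2 fold change 0.00 ± 0.15 and -0.17 ± 0.15, SE, edgeR adjusted p = 0.99 and 0.79).

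**Figure D3:**
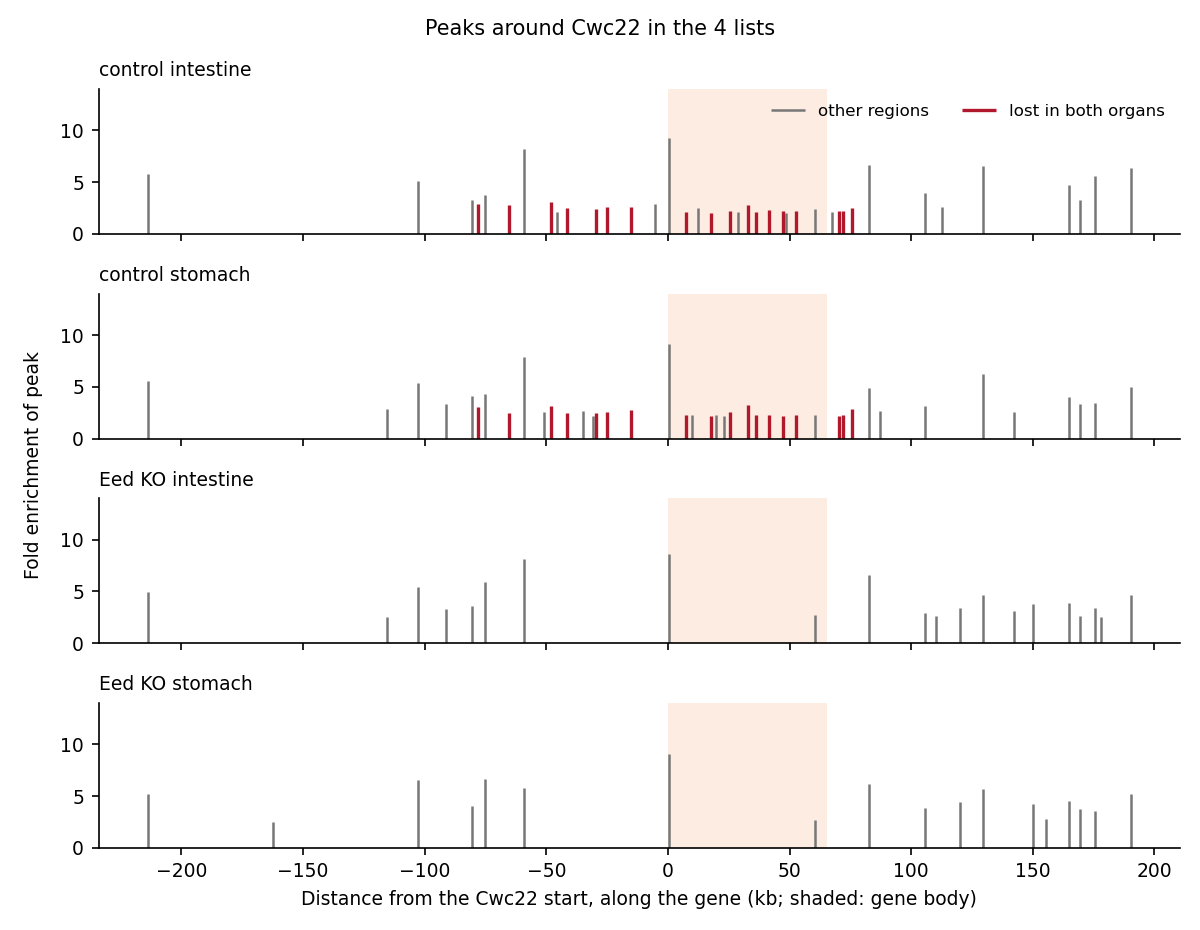
Each vertical line is a peak, with its distance from the *Cwc22* start along the gene in kb on the x axis, its fold enrichment on the y axis and 1 panel for each of the 4 lists; red lines are lost regions and the shaded band is the gene body. The 18 low red peaks stand in both control panels and are absent from both *Eed* KO panels, while the high grey peaks appear in all 4.

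The highest lost peaks did not resemble the rest. The strongest, chr1:24612529-24613240, had folds of 16.3 in the control intestine and 16.1 in the control stomach. Its 712 bp matched the mitochondrial chromosome at 99.7% identity over their full length, and the annotation places pseudogene models such as *Gm10222* there. The share of mitochondrial reads in the libraries was not analysed here, and its part in this peak was not tested. The third was the *Rprl3* start, with folds of 11.9 and 10.1, an RNA gene with 2 counts over all 8 libraries and 2 copies elsewhere at 90% identity or more over at least 80% of its length.

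Copies also marked the fourth and sixth strongest regions, with 16 and 4 further copies by the same measure. The fifth, chrX:73493445-73493834, lay in an intron of *Bgn*, the gene of the matrix proteoglycan biglycan, with folds of 7.05 and 12.8. The nearest start was that of the calcium pump gene *Atp2b3*, with 0.0869 and 0.0765 CPM in the control stomach and 0.402 and 0.987 CPM in *Eed* KO (3.04 ± 0.68, adjusted p = 0.038). The seventh (chr9:100270301-100270520), eighth (chr17:67651623-67651906) and ninth (chr5:58258483-58258897) were intergenic, and no start of a gene with any count lay nearest to them. The tenth, chr18:53879966-53880760, lay in an intron of the kinase gene *Csnk1g3*, whose RNA was 102 CPM in the control and 83.7 CPM in the *Eed* KO stomach on average (adjusted p = 0.11). Over the whole set, few central pieces mapped back poorly. The central 100 bp of 32 lost regions (0.917%) mapped back to the genome with a mapping quality under 10, against 0.606% of matched kept and 0.872% of gained regions. This measure missed copies of the kind just described. The *Rprl3* start and the *Gm20474* intron region, with 2 and 16 further copies, had mapping qualities of 60 and 42. How common repeated sequence was over the whole set therefore cannot be read from it.

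E-box words were concentrated at the centre of the lost regions. CAGCTG stood in the central 300 bp of 1088 lost regions (31.2%), against 22.3% of matched kept regions, 19.5% of gained regions and 23% of all merged regions. Of all 2080 words of 6 letters, counted with their reverse complements, it had the second largest excess over matched kept regions, 8.88 percentage points, after the forkhead-like TAAACA with 8.95. Ranked by ratio to matched kept regions instead, CAGCTG (1.4) came 27th and TAAACA (1.39) 29th. At least 2 copies of CAGCTG were found in 7.62% of lost, 3.4% of matched kept and 2.61% of gained regions. Within 100 bp of the centre, it occurred 1.48 times per kb in lost regions, 0.914 in matched kept and 0.837 in gained regions. From 300 to 500 bp away the order was not the same, with 0.548, 0.698 and 0.566 per kb.

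**Figure D4:**
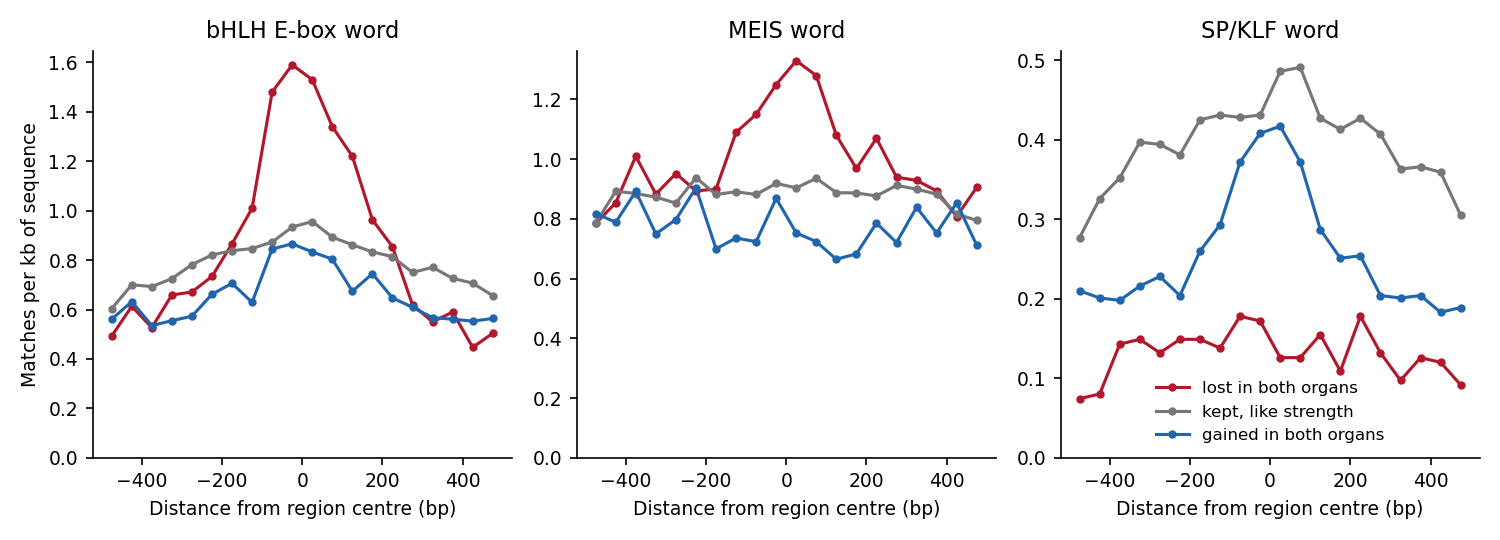
The x axis is the distance from the region centre in bp, in bins of 50 bp, and the y axis is the number of matches per kb for the E-box word (left), the MEIS word (middle) and the SP/KLF word (right), in lost, matched kept and gained regions. The E-box line of lost regions averages 1.48 per kb within 100 bp of the centre and 0.548 from 300 to 500 bp away, and the SP/KLF line of lost regions is the lowest throughout.

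Width and base composition bore on this excess. Lost regions were AT-richer, with a median GC of 46.4% against 49% in matched kept and 50.2% in gained regions. Regions lost in the stomach alone had 47% and those lost in the intestine alone 46.4%. In each of 5 bands of GC, CAGCTG was nonetheless more frequent in lost than in matched kept regions, for example 32.6% against 21.8% at 45% to 50% GC. By width, the excess over matched kept regions held only in short regions. It was 39.9% against 28.5% under 300 bp and 37.3% against 31.1% from 300 to 500 bp. From 500 to 800 bp lost regions held it in 23.2% against 25.5%, and from 800 to 1200 bp in 17.5% against 20.6%. Against gained regions, which have the same median width, lost regions were higher in all 4 width bands, with 39.9% against 22.2% in the shortest.

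The same word tracked genotype in regions outside the rule. Of regions with a peak in a single list, 28.5% held CAGCTG when that list was the control intestine and 26.2% when it was the control stomach. The shares were 19.7% for the *Eed* KO intestine and 20.8% for the *Eed* KO stomach, at median widths of 230 to 253 bp. Regions shared by both controls and lost in the intestine alone held it in 29.2%, and those lost in the stomach alone in 25.6%. These are counts of regions in pooled lists, without replicates.

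Other E-boxes and other factors' words differed too. The HAND and TWIST type E-box CATATG stood in 8.34% of lost, 5.3% of matched kept and 4.93% of gained regions, and CATCTG in 31.9%, 26% and 24.1%. The E-boxes CACCTG (15.8%, 17.8% and 18.6%) and CACGTG (4.3%, 4.87% and 5.13%) were not more frequent. TGACAG, the MEIS word, was found in 29%, 23.1% and 19.4%, the forkhead word TGTTTAC in 8.57%, 5.57% and 4.37% and the TEAD word GGAATG in 24.4%, 20.1% and 19.4%. Regions lost in the stomach alone and in the intestine alone were similar. They held the MEIS word in 27% and 26.7%, the forkhead word in 8.07% and 6.84% and the TEAD word in 26.3% and 21.5%. The MEIS and forkhead words were more frequent in lost than in matched kept regions in all 4 width bands. They were not the only such words. Counted words of SOX (5.76% against 4.09%), AP-1, NFI, GLI, HOX13 and other homeodomain factors were also more frequent in lost than in matched kept regions. Those of ETS (1.23% against 2.01%) and GATA factors were rarer. Only CAGCTG was compared within bands of GC, and the part of base composition in the other words was not tested. Words of factors that act at CpG-rich sites were rarer. GGGCGG, bound by SP and KLF proteins, stood in 3.96% of lost, 9.71% of matched kept and 8.86% of gained regions, and AGGGGGC, part of the CTCF word, in 3.38%, 5.79% and 7.36%. In regions lost in the stomach alone and in the intestine alone, GGGCGG stood in 4.1% and 5.04%. At least 1 of the E-box, forkhead and MEIS words marked in the printed sequences stood in 54.3% of lost, 42.6% of matched kept and 37.3% of gained regions. A match says only that the letters are present, and was not taken as binding.

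Some bHLH and forkhead genes passed the test, and more rose than fell. The genes were listed after the words had been counted. Changes here and in the rest of the text are relative to the median of the 16218 tested genes. Scaled to spike-in totals instead, that median was 2.39 (stomach) and 1.85 (intestine), and the stomach values of *Bmp6*, *Tacr1*, *Efnb2*, *Gm11541* and *Eed*, lower on the relative scale, turned positive. Spike-in counts were 37590 and 36020 in control and 12108 and 4871 in *Eed* KO stomach libraries. In the intestine they were 26227 and 26837 in control and 14932 and 5501 in *Eed* KO. What made these totals differ was not tested. The E-proteins *Tcf3*, *Tcf4* and *Tcf12*, the common partners of tissue bHLH proteins, had log2 fold changes of -0.10 ± 0.11, 0.06 ± 0.16 and -0.10 ± 0.10 (SE) in the *Eed* KO stomach, with adjusted p of 0.64, 0.85 and 0.6. Of 15 tested bHLH genes, 4 rose in the stomach (*Twist2*, *Hand1*, *Myod1* and *Tal1*) and 1 fell (*Msc*), and in the intestine 2 rose (*Msc* and *Tal1*). Of all tested genes, 4.84% rose and 0.808% fell in the stomach, against 2.38% and 0.228% for the intestine. *Tcf21*, a mesenchymal bHLH factor, averaged 351 CPM in the control and 220 CPM in the *Eed* KO stomach, a difference of -0.67 ± 0.13 on the log2 scale that stayed under the fold threshold (adjusted p = 0.021). Of 16 forkhead genes, *Foxc1*, *Foxc2*, *Foxd1*, *Foxd2* and *Foxa1* rose in both organs and none fell. *Foxf1* averaged 378 and 245 CPM in the control and *Eed* KO stomach (adjusted p = 0.016), again under the fold threshold. None of 10 tested MEIS and PBX genes and none of 4 TEAD genes passed in either organ by edgeR. *Meis1* had the lowest adjusted p among them, 0.04 in the stomach, at a log2 fold change of -0.36 ± 0.08.

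Almost no expressed gene had a lost region at its start. The 77 regions within 1000 bp of a start touched 81 annotated starts, of which 59 belong to predicted genes with clone-based or *Gm* names, 35 had no count in any of the 8 libraries and 4 reached a mean of 1 CPM. Only 10 of the 81 were tested. *Gm11541* (chr11:94694498-94704499), a predicted gene, fell in the stomach. It had 5.16 and 6.35 CPM in controls against 1.61 and 1.07 in *Eed* KO (log2 fold change -2.10 ± 0.25, adjusted p = 0.0039), and the intestine had 2.16 and 2.15 against 0.923 and 0.913 CPM (adjusted p = 0.059). With 1 RUVg factor, a term for unwanted variation estimated from the spike-in transcripts, the stomach call was lost (-1.67). That factor was taken from spike-in counts not scaled for depth, and these counts differed by genotype. How far the factor overlaps with genotype was not tested, and a call lost with it cannot be told apart from such overlap. The lost region overlapped the start of *Gm11541*, with folds of 2.86 in the control intestine and 2.28 in the control stomach. RP23-149A5.4, named after its values were seen as the only riser of the 10, was at most 0.509 CPM in any library and did not pass with any 1 stomach library left out. *Tlr6*, a Toll-like receptor gene, had folds of 4.97 and 5.09 at its start but only 0.637 and 0.994 CPM in the control and 1.07 and 1.32 CPM in the *Eed* KO stomach (adjusted p = 0.39). Across all 16218 tested genes, 0.808% fell and 4.84% rose in the stomach, and 0.228% fell and 2.38% rose in the intestine (adjusted p under 0.05 and a change of more than 1, either way, on the log2 scale).

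Genes nearest to lost regions moved about as other genes did, apart from a somewhat larger share that fell in the stomach. A tested gene start lay within 100000 bp of 2045 lost regions, and these pointed to 1746 genes. In the stomach 26 of them (1.49%) fell and 87 (4.98%) rose. In the intestine 4 (0.229%) fell and 34 (1.95%) rose, both close to the shares over all genes. Their median log2 fold change was 0.015 (stomach) and 0.016 (intestine), against 0.001 and 0.006 over all tested genes. Genes nearest to kept regions fell in 0.793% and rose in 5.13% in the stomach, and those nearest to gained regions fell in 0.814% and rose in 7.89%. Genes nearest to regions lost in the stomach alone fell in 1.36% and rose in 5.06% in the stomach. For regions lost in the intestine alone, the stomach shares were 1.1% and 6.41%, so the larger share that fell was not particular to regions lost in both organs. For the 276 genes with a lost region within 10000 bp, the stomach shares were 1.45% lower and 6.16% higher.

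These counts rest on few libraries. Left out in turn, *Eed* KO replicates 1 and 2 and control replicates 1 and 2 of the stomach left 17, 12, 17 and 14 nearest genes lower, of 75, 49, 69 and 62 among all 16218 tested genes (131 with every library). Without *Eed* KO replicate 2 or control replicate 1 or 2, 38, 36 and 32 were higher, of 316, 328 and 285 among all tested genes (785 with every library). For the intestine, leaving out control replicate 1 or 2 gave 4 and 9 genes higher and 1 lower each, and leaving out *Eed* KO replicate 2 gave 18 higher. Over all tested genes those fits called 58, 85 and 179 higher and, without a control, 14 and 12 lower. In bulk RNA, fewer cells of a type and less RNA per cell cannot be told apart.

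Genes with at least 2 lost regions that fell in the stomach included a secreted signal and a receptor. *Bmp6*, a bone morphogenetic protein ligand (chr13:38345716-38499728), had 17.7 and 16.2 CPM in the control stomach and 7.43 and 8.09 CPM in *Eed* KO, with no overlap (log2 fold change -1.13 ± 0.18, adjusted p = 0.012). In the intestine it had 7.5 and 7.03 against 3.16 and 4.53 CPM (-0.92 ± 0.19, under the fold threshold). One of its lost regions is the intronic one printed above, with folds of 3.86 and 3.87, and the other lay 13631 bp from its start. *Tacr1*, the receptor of the neuropeptide substance P (chr6:82402475-82560103), had 43.8 and 34.9 CPM in the control and 12.2 and 10.4 CPM in the *Eed* KO stomach (-1.80 ± 0.30, adjusted p = 0.014). Intestinal *Tacr1* was 16.3 and 11.3 against 10.3 and 18.7 CPM, and the groups overlapped. Both its lost regions were intronic, and the stronger, with folds of 3.66 and 3.9, holds the CAGCTG printed above. The call was lost for *Bmp6* without any 1 of the 4 stomach libraries (log2 fold change -1.19 to -1.06). For *Tacr1* it was lost without *Eed* KO replicate 2 or either control (-1.95 to -1.62 over the 4).

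*Efnb2*, which encodes the membrane ligand ephrin-B2, had 1 lost region within reach, 88072 bp away. It stood at 313 and 305 CPM in the control stomach and at 146 and 136 CPM in *Eed* KO (-1.13 ± 0.10, adjusted p = 0.0012), a call lost with 1 RUVg factor (-0.89), and did not fall in the intestine (174 and 159 against 171 and 149 CPM). *Gm4737*, a predicted gene with 2 lost regions, was lower in both organs, going from 14.7 and 21.5 to 0.107 and 0.11 CPM in the stomach and from 13.1 and 22.1 to 0.105 and 0.171 CPM in the intestine (-7.34 ± 0.45 and -6.96 ± 0.44, adjusted p = 0.00028 and 0.00087). Both calls held without any 1 library, and the stomach call was lost with 1 RUVg factor (-7.22). Whether its RNA differed by strain allele was not checked.

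Some other genes with at least 2 lost regions rose. Of the 220 genes nearest to 2, 6 (2.73%) rose and 5 (2.27%) fell in the stomach, against 4.84% and 0.808% of all tested genes. In the intestine 2 (0.909%) rose and 1 (0.455%) fell, against 2.38% and 0.228%. Of the 30 nearest to 3 or 4, 1 rose and 0 fell in the stomach. *Tnc*, which encodes the matrix protein tenascin-C, went from 18.4 and 19.1 to 50.3 and 51.7 CPM in the intestine (1.44 ± 0.17, adjusted p = 0.007). In the stomach it was 103 and 99.8 against 165 and 239 CPM (0.99 ± 0.16, just under the fold threshold). *Slc14a1*, a urea transporter gene, rose in both organs, from 1.1 and 0.918 to 4.08 and 2.71 CPM in the stomach and from 0.674 and 0.908 to 5.09 and 4.11 CPM in the intestine. *Igfbp5*, *Cd44*, *Zfp385b* and *Mrc1* rose in the stomach by log2 fold changes of 1.09, 1.10, 1.51 and 1.89. Of these, *Zfp385b* kept its call without any 1 library but not with 1 RUVg factor (1.11), and has its 3 lost regions at the edge of the *Cwc22* run. The stomach calls of *Igfbp5*, *Cd44* and *Slc14a1* were each lost without 3 of the 4 libraries and that of *Mrc1* without any 1. With 1 RUVg factor the calls of *Igfbp5* (0.53), *Cd44* (0.42) and *Mrc1* (1.73) were lost too. In the intestine, *Tnc* and *Slc14a1* lost theirs without either control library.

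**Figure D5:**
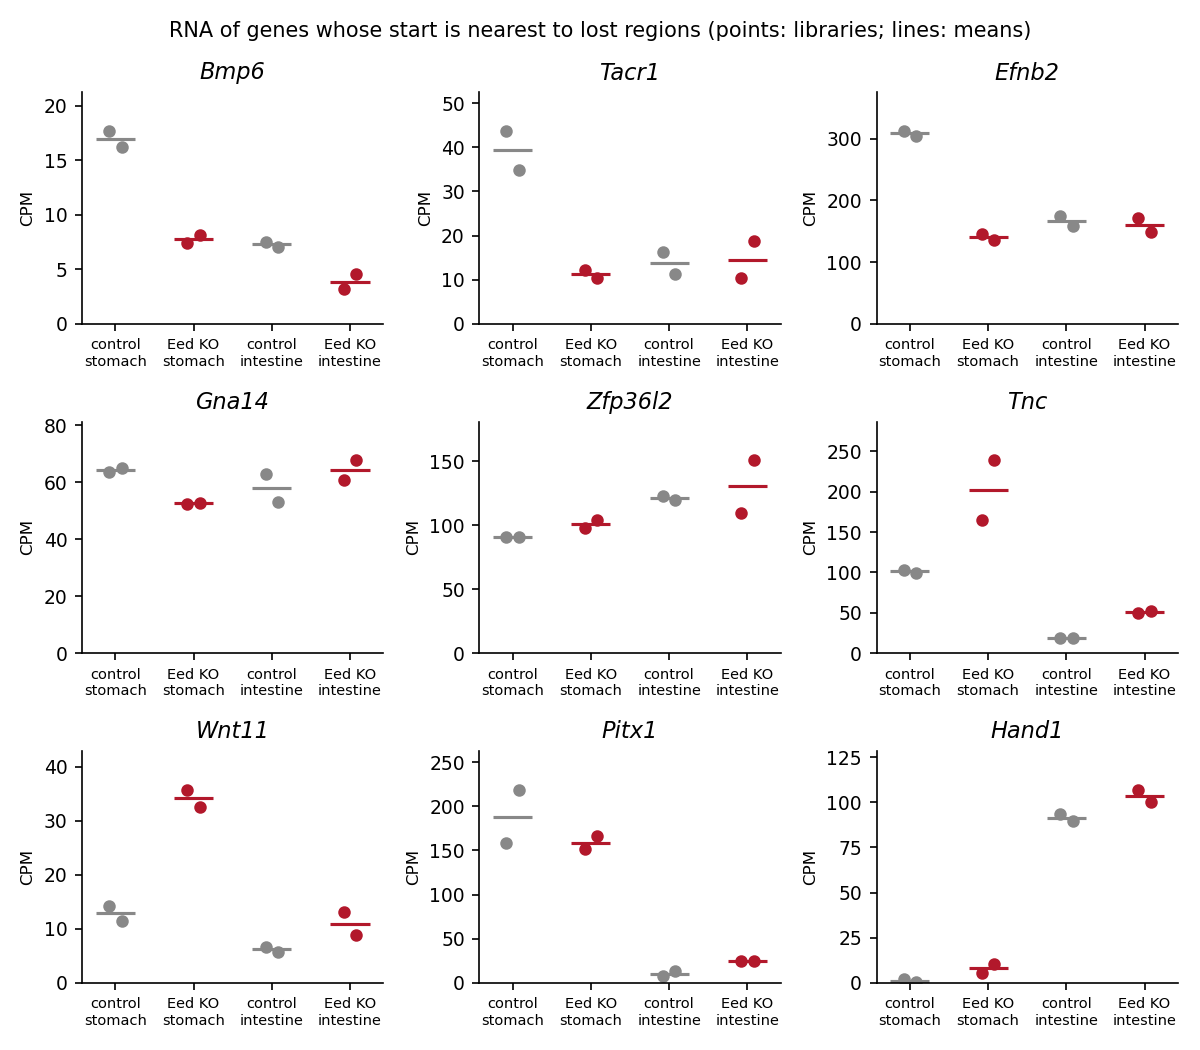
Each point is the CPM of 1 library (y axis, linear from 0) and each line the mean of 2, for 9 genes whose start is nearest to lost regions, in control and *Eed* KO stomach and intestine. *Bmp6*, *Tacr1* and *Efnb2* are lower in the *Eed* KO stomach, *Gna14* and *Zfp36l2* hardly move, and *Tnc*, *Wnt11*, *Pitx1* and *Hand1* are higher in at least 1 organ.

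Of the genes with the most lost regions, *Cwc22*, *Gna14*, *Zfp36l2*, *Acap2* and *Ackr3* were named, and none passed both thresholds in either organ. *Gna14*, a G protein subunit gene, had 5, of which 4 were intronic with folds of 2.69 to 3.8 in the control intestine. Its RNA was 63.6 and 65 CPM in the control and 52.4 and 52.7 CPM in the *Eed* KO stomach, without overlap but with a log2 fold change of only -0.29 ± 0.11 (adjusted p = 0.18). *Zfp36l2*, which encodes an RNA-binding protein that promotes mRNA decay, had 4, and its RNA was 91.2 and 91.1 against 97.6 and 104 CPM (adjusted p = 0.58). *Acap2* and *Ackr3* had 3 each, as did several others, among them *Zfp385b*, which rose in the stomach. *Acap2* had 109 and 110 against 103 and 99.9 CPM (adjusted p = 0.51). *Ackr3*, a chemokine-binding receptor gene, had 54.1 and 53.4 against 36.5 and 35.7 CPM in the stomach (-0.57 ± 0.12, adjusted p = 0.026, under the fold threshold), and 38.2 and 40.5 against 44.8 and 36.8 CPM in the intestine.

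Lost regions lay nearest to genes of most of the listed groups. Of all tested genes, 10.8% were nearest to a lost region. The share was 35.7% of 28 Wnt and BMP signalling genes, 34.8% of 23 extracellular matrix genes, 29.4% of 17 gut mesenchyme genes, 25% of 24 organ transcription factors, 21.4% of 14 smooth muscle genes and 20.8% of 24 axon guidance genes. It was 25.9% of 27 PRC2-silenced developmental genes and 2.56% of 39 *Hox* genes. None of these genes had a lost region within 1000 bp of its start. The share was 33.3% of 12 endothelial, 18.2% of 11 epithelial, 14.3% of 7 erythroid, 12.5% of 8 mesothelial and 8.33% of 12 enteric neural crest genes, and 0 of 4 leukocyte and 4 skeletal muscle genes. The lists were short and were not tested as sets. Of all 16218 tested genes, 14886 were nearest to a kept region and 3561 to a gained region. Shares of the lists were not counted for kept or gained regions, so the shares above cannot be called particular to lost regions.

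The organ factors named here that changed beside a lost region rose. *Hand1*, an intestinal bHLH factor, had 1.94 and 0.28 CPM in the control stomach and 5.44 and 10.6 CPM in *Eed* KO (2.89 ± 0.62, adjusted p = 0.032), against 93.3 and 89.8 and then 107 and 100 CPM in the intestine. *Pitx1*, a homeobox factor, rose in the intestine from 7.72 and 13.1 to 24.4 and 24.2 CPM (1.23 ± 0.25, adjusted p = 0.047). The organ factors *Tcf21*, *Meis2* and *Pbx3*, also beside lost regions, did not pass. *Twist2* was the only gut mesenchyme gene of 5 beside lost regions that passed, in the stomach (1.01 ± 0.19, adjusted p = 0.02), while *Pdgfra*, *Nkx3-2*, *Twist1* and *Tcf21* did not. The call of *Twist2* was lost without any 1 stomach library and that of *Hand1* without *Eed* KO replicate 2 or control replicate 2 (2.05 to 4.82 over the 4). In the intestine, *Pitx1* lost its call without 3 of the 4 libraries. With 1 RUVg factor the calls of *Hand1* (2.47) and *Pitx1* (1.21) were lost.

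Of the 10 genes of the Wnt and BMP list beside lost regions, 2 rose in 1 organ each and none fell. *Bmp6*, which fell in the stomach, is not in that list. *Wnt11*, a Wnt ligand gene, went from 14.2 and 11.5 to 35.8 and 32.6 CPM in the stomach (1.41 ± 0.21, adjusted p = 0.0085). *Lef1*, a nuclear partner of beta-catenin, went from 0.197 and 0.505 to 2.45 and 2.2 CPM in the intestine (2.76 ± 0.41, adjusted p = 0.016). *Wnt11* lost its call without stomach control replicate 2 and *Lef1* without intestine control replicate 1. *Tnc* was the only one of 8 matrix genes beside lost regions that passed, and none of the 3 smooth muscle genes (*Myh11*, *Myocd* and *Ldb3*) did in either organ.

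Many developmental genes listed as silenced by PRC2 rose, some of them nearest to a lost region. The list was chosen for that silencing, with earlier results of these data known, so its rise is not separate evidence. In the stomach 24 of the 27 tested rose, and 17 did so in the intestine, against 4.84% and 2.38% of all tested genes. Of the 7 listed genes nearest to a lost region, 6 rose (stomach) and 2 rose (intestine). *Alx1*, a craniofacial homeobox gene, had 2 counts over the 2 control stomach libraries and 378 in *Eed* KO, a ratio of 189 (95% counting interval 51.9 to 1566). *Zic2* and *Pax1* had no count in the control stomach and 143 and 175 counts in *Eed* KO, at least 47.6-fold and 58.3-fold higher against a floor of 3 counts over the group. *Alx1* and *Pax2* rose in both organs, and *Alx4* and *Gsc* rose in the stomach. The stomach call of *Pax1* was lost without any 1 library, that of *Gsc* without control replicate 2 and the intestine call of *Pax2* without either control. Their lost regions lay 3218 bp (*Zic2*, in an exon) to 81448 bp (*Alx1*) from the start.

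Markers of other cells moved with some of these genes. Of 12 endothelial markers, 8 rose in the stomach, where their sum was 23.2 to 23.8 CPM in control and 41.6 to 64 CPM in *Eed* KO libraries. Intestinal sums were 23.6 to 27.8 and 66.6 to 68 CPM, and 7 markers rose there. *Cdh5* (VE-cadherin) and *Emcn* (endomucin), each nearest to 1 lost region, were among the markers that rose in the stomach. In the intestine *Cdh5* rose and *Emcn* did not pass. *Cdh5* lost its intestine call without either control library and *Emcn* its stomach call without *Eed* KO replicate 2 or control replicate 2. *Foxa1*, an endoderm factor nearest to 1 lost region, rose in both organs (0.145 and 0.51 to 5.93 and 7.48 CPM in the stomach; the intestine call was lost without any 1 library), while the 13 epithelial markers summed to 107 to 115 CPM in control and 103 to 142 CPM in *Eed* KO stomach libraries. Leukocyte markers summed to 0.985 to 1.15 CPM in control and 2.17 to 5.42 CPM in *Eed* KO stomach libraries, where *Mrc1*, a macrophage receptor gene, rose, and none of the 4 tested passed. In the intestine they summed to 1.63 to 1.65 and 2.08 to 2.17 CPM. Summed erythroid markers reached at most 23.6 CPM in any library. Enteric neural crest markers summed to 218 to 230 CPM in control and 171 to 182 CPM in *Eed* KO stomach libraries. Most of that sum was *Hand2*, at 164 and 137 CPM in control and 97.7 and 97.8 CPM in *Eed* KO. The median log2 fold change of the 12 neural crest markers in the stomach was 0.32. Mesothelial markers summed to 645 to 683 CPM in control and 410 to 529 CPM in *Eed* KO stomach libraries. Skeletal muscle markers summed to at most 5.04 CPM. Smooth muscle markers summed to 3911 to 4097 CPM in control and 2649 to 3051 CPM in *Eed* KO stomach libraries. Their intestinal sums were 4175 to 5871 and 4628 to 7930 CPM. Gut mesenchyme markers summed to 14959 CPM or more in every library. The part of these cell types in the lost peaks was not tested.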

How the data were processed

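ATAC-seq and RNA-seq of sorted GFP+ gut mesenchyme at E13.5 were analysed, with 2 libraries per organ and genotype. The authors trimmed ATAC-seq reads with Trimmomatic, aligned them with BWA to GRCm38/mm10, pooled the replicates of a condition and called broad peaks with MACS2. The deposited peaks carry a fold enrichment (a ratio to background) and a -log10 q, both from MACS2, and the lists reach down to a -log10 q near 1 and include the X chromosome, unlike the methods stated for them. They hold no read counts, so depth and counting error were not available for peaks. For RNA-seq the authors aligned with STAR and deposited unnormalized featureCounts counts on GENCODE vM4 for 43280 symbols and 99 spike-in transcripts. Nothing states which libraries share embryos.

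Peaks were merged with bedtools 2.31.1. Gene starts and exons came from the coordinates in the deposited count tables, and symbols spanning over 2.5 Mb were dropped. Words were searched on both strands in the central 300 bp of GRCm38. Copies were sought with minimap2 (central 100 bp) and BLAST 2.17.0. Counts were compared with edgeR 4.0.16 (R 4.3.3; TMM, filterByExpr, 4 group means, quasi-likelihood test, Benjamini-Hochberg adjustment over 16218 genes), and the fit was tested on simulated data. Genes were called at an adjusted p under 0.05 with a change of more than 1, either way, on the log2 scale. P-values measure the spread between 2 libraries a group. A gene was assigned the lost regions nearest to its start among tested genes, up to 100000 bp.

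Named genes were *Eed*, those nearest to the 10 strongest or to the most lost regions, called genes with a lost region within 1000 bp or with at least 2 nearest (mean of 1 CPM, no overlap between groups, the 10 largest changes each way), and listed genes that were called and nearest to a lost region. Some results under this rule are not reported here. The lists covered gut mesenchyme, organ transcription factors, smooth muscle, *Hox*, PRC2-silenced, Wnt and BMP signalling, matrix, axon guidance, enteric neural crest, endothelial, leukocyte, epithelial, erythroid, mesothelial and skeletal muscle genes. Members, lists and alternatives were chosen with earlier results of these data known. Alternatives were stricter or wider peak rules, DESeq2 1.42.0, no count filter, 1 RUVg factor, spike-in totals, a replicate block and leaving out each library.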

Additional observations from a re-analysis of the deposited data

Results flagged for a closer look

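Of 78 genes named or listed as factors, 2 moved in opposite directions in the organs, with every *Eed* KO library on one side of both controls in each. *Msc*, a bHLH gene, had log2 fold changes of -1.07 in the stomach and 2.17 in the intestine, a difference of 3.24. *Meis3* had 0.25 and -0.12, a difference of -0.37, and passed in neither organ (edgeR adjusted p = 0.19 and 0.74). The difference between the organs was not tested for either gene.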

How the results depend on the processing

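The number and place of the lost regions depended on the peak rule. With all peaks held to a -log10 q of at least 5, there were 2240 lost regions, 2.99% of them within 1000 bp of a gene start. With that limit on control peaks only there were 163 (6.13%), and where an *Eed* KO peak had to cover at least 50% of the merged control region, 10789 (3.93%). Within 5000 bp of a start lay 9.57%. A -log10 q of at least 2, or merging peaks up to 250 bp apart, moved neither value beyond its limit (2923 and 3508 regions).

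For nearest genes in the stomach, the count lower (26) was 44 with 1 RUVg factor and 4 with spike-in totals, and the count higher (87) was 33 and 1630. In the intestine, the count lower (4) was 19 with RUVg, 11 with DESeq2 and 14 without the count filter. The count higher (34) was 21 with RUVg, 64 with DESeq2, 74 without the filter and 1435 with spike-in totals. Spike-in totals moved the median log2 fold change of all tested genes to 2.39 (stomach) and 1.85 (intestine), and *Bmp6* (1.29), *Efnb2* (1.24), *Tacr1* (0.56), *Eed* (0.14) and *Gm11541* (0.14) then turned positive in the stomach. With 2 numbers a group, the replicate numbers were not taken to pair the genotypes (deviations of same-numbered libraries correlated between genotypes at 0.200 (intestine) and 0.138 (stomach), and across organs at 0.370 in controls and 0.748 in *Eed* KO). With a replicate block, the intestine had 10 nearest genes lower and 62 higher, and 1 with a lost region at its start lower.

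For the 10 genes with a lost region at the start, the stomach had 0 lower and 7 higher with spike-in totals, and 0 higher with RUVg or DESeq2. The intestine had 3 higher with spike-in totals and 1 lower with DESeq2 or no filter. Without 1 library, nearest genes lower ranged from 12 to 17 and higher from 32 to 71 in the stomach (38 without *Eed* KO replicate 2 and 36 without control replicate 1). In the intestine the ranges were 1 to 6 lower and 4 to 37 higher (18 without *Eed* KO replicate 2 and 9 without control replicate 2). At gene starts, 1 was lower in each stomach leave-out and 0 higher. Of named genes called in the stomach, 11 of 23 kept the call without any 1 library, and in the intestine 3 of 11. With 1 RUVg factor 12 calls of named genes were lost, among them *Emcn* (3.49) and *Pax1* (5.93) in the stomach and *Foxa1* (3.40) in the intestine. Spike-in counts differed by genotype, and the overlap of this factor with genotype was not tested. The 2 libraries a group limit all of these counts.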
